A study of Homo sapiens with 27 samples.

Results

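The epithelial integrins described here are 10 genes that encode subunits of the receptors with which epithelial cells hold on to the matrix beneath them. They are the alpha subunits ITGA2, ITGA3, ITGA5, ITGA6 and ITGAV and the beta subunits ITGB1, ITGB4, ITGB5, ITGB6 and ITGB8. They were chosen by gene symbol, and each matched 1 row of a table of 40487 rows of RNA-seq counts. All 10 passed the filter on low counts, as did 16611 rows in all. The cells were MCF10A, an established, non-tumorigenic human breast epithelial line, in 9 groups of 3 libraries. Every group had been grown in medium with serum and 20 ng/ml EGF, seeded on collagen-coated plates, and moved after 6 h to medium without growth factors for 18 h. The group labelled T0 was collected at 0 h, with no treatment. The other 8 groups were collected 24 h later. They had received PBS, epidermal growth factor (EGF), oncostatin M (OSM), a relative of interleukin-6, transforming growth factor beta (TGFB), EGF+OSM, EGF+TGFB, OSM+TGFB, or EGF+OSM+TGFB. Each ligand was given at 10 ng/ml. The labels do not say whether the 3 libraries of a group came from separate cultures, so the p-values measure the spread between these libraries, which may be technical.

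An integrin is a pair of 1 alpha and 1 beta subunit, and the pairing sets what it binds. ITGB1 pairs with ITGA2 to bind collagen, with ITGA3 and ITGA6 to bind laminins, and with ITGA5 to bind fibronectin. ITGA6 paired with ITGB4 binds laminin in the hemidesmosome, the junction that ties an epithelial cell's keratin filaments to the basement membrane. ITGAV pairs with ITGB5, a vitronectin receptor, and with ITGB6 and ITGB8, which bind and activate latent TGFB. RNA levels of subunits do not give the amounts of the pairs at the cell surface. In GENCODE v44 (GRCh38), the genes on the plus strand are ITGA2 (ENSG00000164171) at chr5:52989340-53094779, ITGA3 (ENSG00000005884) at chr17:50055968-50090481 and ITGA6 (ENSG00000091409) at chr2:172427354-172506459, with ITGAV (ENSG00000138448) at chr2:186590010-186680901, ITGB4 (ENSG00000132470) at chr17:75721328-75757818 and ITGB8 (ENSG00000105855) at chr7:20330702-20415754. Those on the minus strand are ITGA5 (ENSG00000161638) at chr12:54395261-54419266, ITGB1 (ENSG00000150093) at chr10:32887273-33005792, ITGB5 (ENSG00000082781) at chr3:124761948-124901418 and ITGB6 (ENSG00000115221) at chr2:160099667-160200313.

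The libraries held between 30143162 and 52947078 counts, with a median of 39530985. Basal epithelial markers were abundant in every library, with KRT5 at 3315 to 9189 CPM (TMM-scaled counts-per-million) and TP63 at 84.3 to 199 CPM. Their list of 4 summed to 9359 to 10993 CPM in PBS, 7862 to 8709.5 CPM in EGF, 16576 to 16897 CPM in OSM, 11441 to 13441 CPM in TGFB and 18684 to 20885 CPM in OSM+TGFB. The 4 did not all move the same way. In EGF, KRT5 (3880 to 4183 CPM) lay below PBS (6117 to 7027 CPM), as did TP63. KRT17 in EGF (3183 to 3688 CPM) lay above PBS (2536 to 3106 CPM), and KRT14 overlapped PBS. Of 4 general epithelial markers, DSP stood at 926 to 4903 CPM, CDH1 at 143 to 675 CPM, KRT18 at 109 to 430 CPM and EPCAM at 2.72 to 18.5 CPM. Their sum was 4779 to 5298 CPM in PBS, 5354 to 5679 CPM in TGFB, 2143 to 2586 CPM in EGF, 2605 to 3051 CPM in OSM and 1527 to 1721 CPM in EGF+OSM. Most of this sum was DSP. KRT18 went the other way, from 109 to 124 CPM in PBS to 263 to 282 CPM in EGF and 401 to 430 CPM in EGF+OSM. EPCAM also stood higher in EGF (11.8 to 12.9 CPM) than in PBS (8.02 to 10.4 CPM), while CDH1 was lower in EGF. The 4 leukocyte markers summed to at most 0.342 CPM. The 4 fibroblast markers summed to 7.86 to 14.6 CPM in the 4 groups given EGF and to 65.1 to 104 CPM in the 5 groups without it, nearly all of it from DCN; LUM, PDGFRA and PDGFRB did not exceed 1.04 CPM in any library. The 4 endothelial markers, mostly KDR, summed to 31.2 to 35.3 CPM in PBS, to 16.7 to 19.6 CPM in T0 and TGFB, and to 0.754 to 3.65 CPM in the 6 groups given EGF or OSM, and CDH5 was at 0 in 18 libraries. The part of these shifts in marker levels in the results below was not tested. In RNA from whole cultures, fewer cells of a type and less RNA per cell cannot be told apart.

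After 24 h in PBS, levels per kilobase of transcript placed the shared beta subunit first. ITGB1 stood at 239 ± 16.7 CPM per kb (SD, n = 3) and ITGB4 at 169 ± 5.07 CPM per kb. The laminin-binding alpha subunits ITGA6 and ITGA3 came next, at 79.1 ± 4.87 and 59.6 ± 0.902 CPM per kb, ahead of ITGA5 at 42.1 ± 2.02 CPM per kb. ITGAV and ITGB6 lay together at 26.5 ± 1.13 and 26.2 ± 2.35 CPM per kb, as did ITGB5 and ITGB8 at 14.6 ± 0.533 and 14.1 ± 0.471 CPM per kb, within their spread in both cases. ITGA2 was the lowest of the 10, at 9.63 ± 0.948 CPM per kb. Later levels of single genes are in CPM, without division by length, while shares, ratios and sums of subunits are per kilobase, and fold changes are log2 values with their standard errors.

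**Figure D1:**
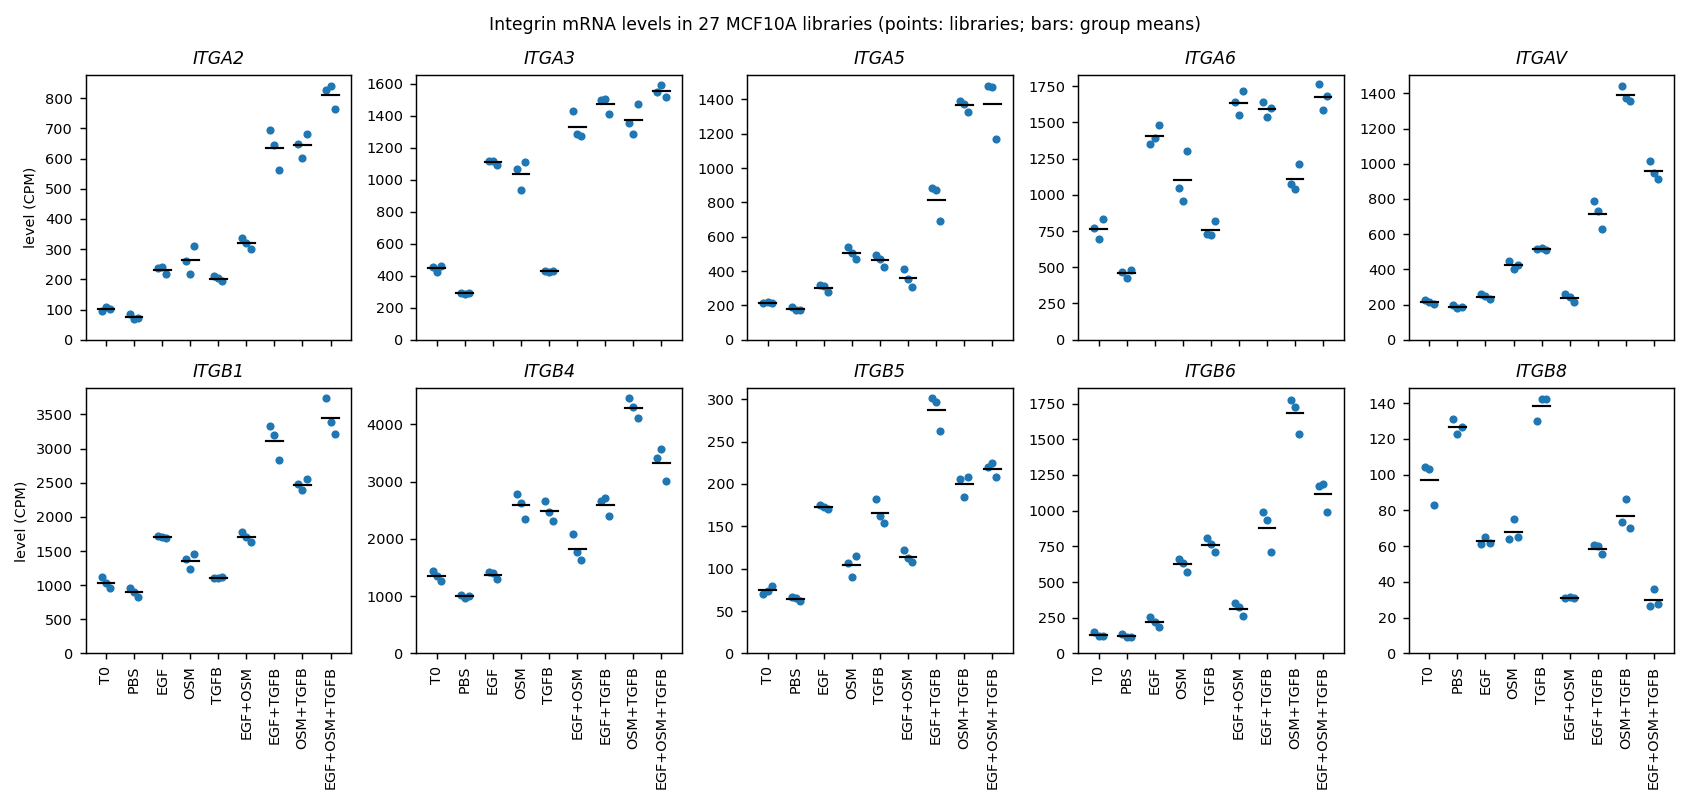
Level of each of the 10 integrin genes (CPM, linear axis with its own scale for each gene) in the 27 libraries, by group. Points are libraries and bars are group means; ITGB6 spans 121 CPM in PBS to 1680 CPM in OSM+TGFB, and ITGB8 is the gene that runs the other way, from 127 CPM in PBS to 30.1 CPM in EGF+OSM+TGFB.

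The widest ranges over the 9 group means belonged to ITGB6, ITGA2, ITGA5 and ITGAV, which spanned 13.8-fold, 10.8-fold, 7.64-fold and 7.45-fold. The ranges of the other 6 lay between 3.65-fold for ITGA6 and 5.34-fold for ITGA3. The stretches of sequence just before the first annotated exon of those 4 genes are shown because their levels moved most and because they differ in base composition. They come from RefSeq promoter entries (GRCh38.p14), which 8 of the 10 genes had; ITGA3 and ITGB4 are named only. Searches covered the 250 bases before the start, on both strands, for the AP-1 motif TGANTCA, the SMAD box CAGAC, the STAT motif TTCNNNGAA and the GC box GGGCGG, none of whose matches overlapped. Capitals mark the matches.
ITGA2, chr5:52989102-52989339, plus strand: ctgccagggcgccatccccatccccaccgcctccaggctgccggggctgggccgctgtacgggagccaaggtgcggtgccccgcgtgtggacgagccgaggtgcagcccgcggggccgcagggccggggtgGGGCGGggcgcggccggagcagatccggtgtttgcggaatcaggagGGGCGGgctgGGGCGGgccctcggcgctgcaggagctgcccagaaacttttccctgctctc
ITGA5, chr12:54419267-54419516, minus strand: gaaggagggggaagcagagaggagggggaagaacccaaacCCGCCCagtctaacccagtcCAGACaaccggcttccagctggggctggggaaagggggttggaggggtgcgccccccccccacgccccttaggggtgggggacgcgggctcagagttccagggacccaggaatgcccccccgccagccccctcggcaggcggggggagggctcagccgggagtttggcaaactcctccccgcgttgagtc
ITGAV, chr2:186589806-186590009, plus strand: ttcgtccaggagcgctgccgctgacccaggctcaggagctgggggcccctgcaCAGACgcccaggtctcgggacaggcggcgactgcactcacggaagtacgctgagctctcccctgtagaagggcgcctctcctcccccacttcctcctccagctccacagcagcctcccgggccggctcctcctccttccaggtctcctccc
ITGB6, chr2:160200314-160200522, minus strand: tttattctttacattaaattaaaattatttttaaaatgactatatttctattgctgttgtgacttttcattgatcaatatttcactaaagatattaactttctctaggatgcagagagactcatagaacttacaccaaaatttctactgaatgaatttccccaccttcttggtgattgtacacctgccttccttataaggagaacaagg

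Among all 35116 promoters, windows of the same length held AP-1 in 6.57%, STAT in 6.57%, the SMAD box in 38.0% and the GC box in 42.6%. None of the 8 integrin windows held the AP-1 or STAT letters. The SMAD box was found in the windows of ITGA5, ITGAV, ITGB1 and ITGB8. GC boxes were found in ITGA2 (4, of which 3 lie in the stretch shown), ITGA5 (1), ITGA6, ITGB1 and ITGB5 (3 each) and ITGB8 (2), and none in ITGAV or ITGB6. The window of ITGB6 stood apart in composition: 30% of its bases were G or C, against 70.0% to 78.4% in the other 7. A match describes the letters in the window and no more.

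The first question was what each ligand did to the integrins over 24 h, judged against PBS. With EGF 9 of the 10 genes rose and ITGB8 fell, with a median log2 fold change of 0.90 over the 10 and -0.07 over all rows tested. EGF moved 70.8% of all rows, 33.8% higher and 37% lower, so a call alone sets no gene apart. With OSM the same split was seen, 9 higher and ITGB8 lower, at a median of 1.32 against 0.00 over all rows, of which 61% were called, 32.4% higher and 28.5% lower. With TGFB 9 rose and ITGB8 was not called, at a median of 1.34 against -0.01 over all rows, of which 33.5% were called, 18.9% higher and 14.7% lower. The 3 ligands thus raised the same 9 genes. The largest rise was that of ITGA3 with EGF and that of ITGB6 with both OSM and TGFB. Calls here and below are those of edgeR's quasi-likelihood test at an adjusted p under 0.05, by the Benjamini-Hochberg method over 16611 rows. OSM was also set against EGF directly, where 7 members differed, 4 higher in OSM and 3 lower; of all rows 54.4% were called, 26.8% higher and 27.6% lower.

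**Figure D2:**
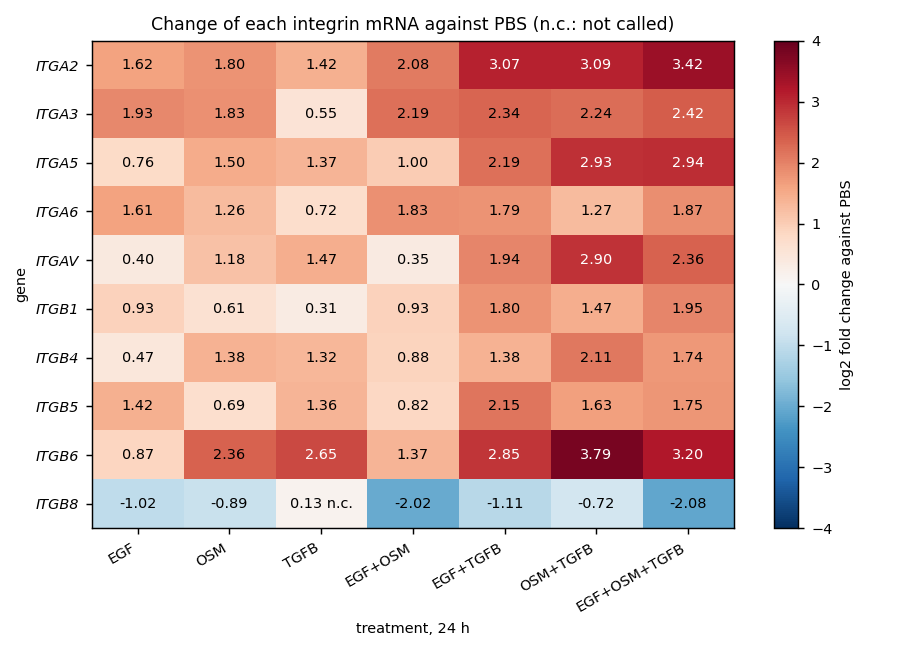
Log2 fold change against PBS (colour and printed value) for each of the 10 genes (rows) under the 7 ligand conditions (columns). The letters n.c. mark a change not called at an adjusted p under 0.05. The 9 genes other than ITGB8 lie above 0 in every condition, and ITGB8 lies below 0 in all but TGFB.

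ITGA3, the alpha subunit of the main laminin receptor of keratinocytes and mammary epithelium, rose with both EGF and OSM and less with TGFB. Its 3 libraries stood at 294, 286 and 294 CPM in PBS, 1120, 1121 and 1094 CPM in EGF, and 1066, 936 and 1110 CPM in OSM. Every EGF and OSM library lay above every PBS library, while the EGF and OSM libraries overlapped. The log2 fold changes were 1.93 ± 0.06 with EGF (edgeR adjusted p 1.3e-17) and 1.83 ± 0.06 with OSM (7.5e-18). TGFB gave 428, 424 and 431 CPM, a separate but smaller rise of 0.55 ± 0.06 (4.8e-08). OSM against EGF differed by -0.10 ± 0.06, which was not called (adjusted p 1.5e-01); it was called by DESeq2 (-0.14, adjusted p 0.0444) and without OSM library 1 or 3 (-0.17 and -0.22).

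ITGA6, which pairs with either ITGB1 or ITGB4, followed a similar order. It stood at 466, 429 and 484 CPM in PBS and at 1349, 1389 and 1481 CPM in EGF, with no overlap. In OSM the libraries spread from 956 to 1302 CPM, all below the EGF libraries, and OSM was lower than EGF by a log2 difference of -0.35 ± 0.09 (edgeR adjusted p 1.7e-03). The fold changes against PBS were 1.61 ± 0.09 for EGF, 1.26 ± 0.09 for OSM and 0.72 ± 0.09 for TGFB, and all were called. Library 2 was the lowest of its group for ITGA6 in 8 of the 9 groups.

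ITGA2, the collagen-binding alpha subunit, rose with each ligand. PBS libraries held 84.0, 70.1 and 72.5 CPM. EGF libraries held 237, 241 and 218 CPM, OSM libraries 261, 216 and 309 CPM, and TGFB libraries 210.2, 204 and 195 CPM. No treated library overlapped PBS, and the EGF and OSM libraries overlapped each other. The log2 fold changes were 1.62 ± 0.10 with EGF (edgeR adjusted p 1.5e-12), 1.80 ± 0.10 with OSM (4.5e-13) and 1.42 ± 0.10 with TGFB (1.0e-10).

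ITGA5, the fibronectin receptor's alpha subunit, stood higher in OSM and TGFB than in EGF. Its libraries stood at 188, 172 and 176 CPM in PBS, 320.1, 311 and 278 CPM in EGF, 539, 506 and 469.9 CPM in OSM, and 493, 473 and 421 CPM in TGFB. All treated libraries lay above PBS, and all OSM and TGFB libraries lay above EGF. Fold changes were 0.76 ± 0.10 with EGF (edgeR adjusted p 7.5e-07), 1.5 ± 0.11 with OSM (2.4e-11) and 1.37 ± 0.11 with TGFB (4.7e-10). OSM exceeded EGF by 0.74 ± 0.10 (adjusted p 2.5e-06).

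ITGB1, the beta subunit shared by ITGA2, ITGA3, ITGA5 and ITGA6, had smaller fold changes from a high level. PBS libraries held 954, 897 and 829 CPM and EGF libraries 1716, 1700 and 1688 CPM, a rise of 0.93 ± 0.07 (edgeR adjusted p 2.4e-11). OSM libraries held 1384, 1240 and 1459 CPM, between PBS and EGF, for a rise of 0.61 ± 0.07 (5.5e-08). TGFB libraries, at 1109, 1101 and 1119 CPM, were close to one another and above PBS, with a rise of 0.31 ± 0.07 (9.9e-04).

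ITGB4, the hemidesmosomal beta subunit, did not follow its partner ITGA6. It stood at 1023, 964 and 1000 CPM in PBS and at 1416, 1412 and 1299 CPM in EGF, a rise of 0.47 ± 0.08 (edgeR adjusted p 2.0e-05). OSM took it to 2779, 2633 and 2348 CPM, and TGFB to 2661, 2476 and 2323 CPM. These 6 libraries overlapped one another and lay above all EGF libraries. The fold changes were 1.38 ± 0.08 with OSM and 1.32 ± 0.08 with TGFB, and OSM exceeded EGF by 0.91 ± 0.08 (adjusted p 2.0e-09). The ratio of ITGB4 to ITGA6 per kilobase was 2.14 ± 0.0923 in PBS, 0.968 ± 0.0905 in EGF, 2.37 ± 0.515 in OSM and 3.26 ± 0.427 in TGFB (SD, n = 3). Every EGF library was lower in this ratio than every PBS library and every TGFB library was higher, while OSM libraries overlapped PBS.

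Of the ITGAV family, ITGAV itself rose with OSM and TGFB and little with EGF. The PBS libraries held 195, 179 and 186 CPM and the EGF libraries 259, 249 and 229 CPM, a rise of 0.40 ± 0.07 (edgeR adjusted p 4.1e-05). OSM libraries held 448, 402 and 422 CPM and TGFB libraries 518, 522 and 509.8 CPM, with no overlap among the 4 groups. Fold changes were 1.18 ± 0.07 with OSM (1.5e-12) and 1.47 ± 0.07 with TGFB (2.3e-13).

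ITGB6, the epithelial beta subunit of a receptor for latent TGFB, had the highest fold change of the 10 with OSM and with TGFB. PBS libraries stood at 134, 113 and 118 CPM. EGF gave 256, 223 and 184 CPM, OSM 665, 635 and 571 CPM, and TGFB 812, 766 and 708 CPM. The 4 groups were in that order with no library out of place. Fold changes were 0.87 ± 0.14 with EGF (edgeR adjusted p 7.3e-06), 2.36 ± 0.14 with OSM (3.8e-12) and 2.65 ± 0.14 with TGFB (3.3e-12). OSM exceeded EGF by 1.49 ± 0.14 (7.2e-09). Library 3 was the lowest of its group in 8 of the 9 groups for ITGB6 and ITGB4, and in 7 of 9 for ITGA5 and ITGAV; the cause was not tested.

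ITGB5, a partner of ITGAV in vitronectin binding, stood higher in EGF than in OSM, unlike ITGB4 and ITGB6. It stood at 66.4, 65.8 and 62.0 CPM in PBS, 176, 172 and 171 CPM in EGF, 107, 90.6 and 115 CPM in OSM, and 183, 162 and 154 CPM in TGFB. EGF and TGFB libraries overlapped each other and lay above OSM, which lay above PBS. Its rises were 1.42 ± 0.08 (EGF), 0.69 ± 0.08 (OSM) and 1.36 ± 0.08 (TGFB). OSM was below EGF by -0.73 ± 0.08 (edgeR adjusted p 2.6e-08).

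ITGB8, the other beta subunit known for activating latent TGFB, was the gene that fell. PBS libraries held 131, 123 and 126 CPM. They fell to 61.2, 65.0 and 61.8 CPM with EGF and to 63.9, 75.3 and 65.4 CPM with OSM, while TGFB libraries, at 130.2, 143 and 142 CPM, overlapped PBS. The fold changes were -1.02 ± 0.09 with EGF (edgeR adjusted p 1.5e-09) and -0.89 ± 0.09 with OSM (2.1e-08). With TGFB the change was 0.13 ± 0.09 and was not called (3.3e-01).

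The further 24 h without ligand lowered most of the integrins. Between T0 and 24 h in PBS, 7 integrins fell and ITGB8 rose, at a median of -0.24 against -0.01 over all rows, of which 32.9% were called, 15.1% higher and 17.8% lower. ITGA6 fell from 771, 697 and 833 CPM to its PBS level, by 0.74 ± 0.09 on the log2 scale (edgeR adjusted p 8.4e-07). ITGA3 fell from 456, 425 and 463 CPM by 0.62 ± 0.06 (1.8e-08), and in both genes no T0 library overlapped PBS. ITGA2 and ITGB4 each fell by 0.44, with adjusted p-values of 1.5e-03 and 1.9e-04. ITGB8 rose from 104, 103 and 83.3 CPM by 0.39 ± 0.09 (2.5e-03). The falls of ITGAV, ITGB1 and ITGB5, each 0.21, were near the threshold (adjusted p 3.0e-02, 2.2e-02 and 4.7e-02). Without PBS library 2 or PBS library 3 there were 5 calls in place of 8. ITGA5 (-0.27 ± 0.10, 5.1e-02) and ITGB6 (-0.12 ± 0.14, 5.4e-01) were not called; ITGA5 was called by DESeq2 (-0.26, adjusted p 0.0388) and with PBS and T0 fitted alone (-0.27, adjusted p 0.0030).

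Adding TGFB to EGF, to OSM, or to both asked whether its effect holds when another ligand is present. In each of the 3 settings 8 integrins rose and none fell, with medians of 0.89, 0.90 and 0.97. Of all rows 52.2%, 48.8% and 58.8% were called in the 3 settings, with 25.8%, 24.6% and 30.4% higher and 26.4%, 24.2% and 28.4% lower. The 2 genes not called were ITGA6 and ITGB8 in each setting.

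The largest of these rises were those of ITGB6, ITGAV, ITGA5 and ITGA2 in each setting. ITGAV went from 259, 249 and 229 CPM in EGF to 788, 729 and 631 CPM in EGF+TGFB, and from 448, 402 and 422 CPM in OSM to 1444, 1376 and 1354 CPM in OSM+TGFB. From EGF+OSM to EGF+OSM+TGFB it went from 261, 241 and 212 CPM to 1018, 949 and 915 CPM. None of the pairs of groups overlapped, and the log2 rises were 1.54 ± 0.07, 1.71 ± 0.07 and 2.01 ± 0.08 (edgeR adjusted p 8.2e-14, 2.5e-14 and 5.7e-16). For ITGB6 they were 1.99 ± 0.14, 1.43 ± 0.14 and 1.83 ± 0.14, and for ITGA5 1.43 ± 0.10, 1.43 ± 0.10 and 1.94 ± 0.11. ITGA2 rose by 1.45 ± 0.10, 1.30 ± 0.10 and 1.34 ± 0.10, to reach 694, 645 and 564 CPM in EGF+TGFB, 649, 601 and 681 CPM in OSM+TGFB, and 826, 839.7 and 765 CPM with all 3 ligands. The group with all 3 ligands lay above every other group for ITGA2 without overlap.

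TGFB added less to the laminin-binding alpha subunits. ITGA3 rose by 0.41 ± 0.06 on EGF, 0.40 ± 0.06 on OSM and 0.22 ± 0.06 on EGF+OSM (edgeR adjusted p 2.3e-06, 2.7e-06 and 1.7e-03). The last of these was lost without EGF+OSM+TGFB library 2, where the change was 0.15. It also rested on the TMM scaling. Without that scaling ITGA3 stood at 1454, 1321 and 1300 CPM in EGF+OSM. The EGF+OSM+TGFB libraries then stood at 1343, 1395 and 1355 CPM and overlapped them. For ITGA6 the changes were 0.18 ± 0.09, 0.01 ± 0.09 and 0.04 ± 0.09, with OSM libraries at 1048, 956 and 1302 CPM and OSM+TGFB libraries at 1072, 1038 and 1214 CPM. The first of them was called when the EGF and EGF+TGFB groups were fitted alone (0.18, adjusted p 0.0223). ITGB4 rose by 0.92, 0.73 and 0.86, and ITGB5 by 0.73, 0.94 and 0.93, all called with a standard error of 0.08. ITGB8 changed by -0.09, 0.17 and -0.06, each with a standard error of 0.10; the last was -0.26 and called without EGF+OSM+TGFB library 2 (adjusted p 0.0239).

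Whether ligands given together acted as the sum of each alone was read on the log2 scale, from the departure from additivity. This is how far the log2 change under a combination lay from the summed log2 changes of its ligands given singly. A sum of log2 changes is a product of fold changes, so a shortfall here need not be a shortfall in CPM. EGF and OSM together fell short of their sum for 9 of the 10 integrins, at a median departure of -1.24 against -0.01 over all rows; 36.5% of rows were called, 14.6% higher and 21.9% lower. ITGB6 stood at 351, 328 and 264 CPM in EGF+OSM, between the EGF and the OSM libraries, for a departure of -1.85 ± 0.19 (edgeR adjusted p 1.0e-07). ITGA3, at 1434, 1288 and 1272 CPM, rose above both single ligands and still fell short of their sum by 1.57 ± 0.08 (8.8e-13). The exception was ITGB8. Its libraries in EGF+OSM stood at 31.0, 31.6 and 31.1 CPM, below all those of either ligand alone, and the departure was -0.11 ± 0.14 and not called (5.7e-01).

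With TGFB in the pair the median departure lay nearer to 0. For EGF and TGFB 5 were called, 1 above and 4 below the sum, at a median of -0.18, and for OSM and TGFB 5 were called in the same split, at a median of -0.14. Of all rows 27.7% were called for the former pair, 12.3% higher and 15.4% lower, and 21.5% for the latter, 8.86% higher and 12.6% lower. ITGB1 was the member above the sum in both pairs. It reached 3329, 3193 and 2826 CPM in EGF+TGFB and 2478, 2386 and 2552 CPM in OSM+TGFB, above all libraries of each single ligand. Its departures were 0.56 ± 0.10 (edgeR adjusted p 1.7e-04) and 0.55 ± 0.10 (2.9e-04). ITGA6, ITGB4, ITGB5 and ITGB6 fell short of the summed log2 changes in both pairs. ITGB6 did so by 0.66 ± 0.19 with EGF and TGFB and by 1.22 ± 0.19 with OSM and TGFB. In CPM, however, mean ITGB6 in OSM+TGFB (1680) lay above its OSM and TGFB means (624 and 762) added together. Mean ITGA6 in OSM+TGFB (1108 CPM) lay below its OSM and TGFB means (1102 and 756 CPM) added together. ITGAV departed by 0.25 ± 0.10 for OSM and TGFB and was not called (9.7e-02), but was called with those groups fitted alone (0.25, adjusted p 0.0298).

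For ITGA2 and ITGA5 the departures with TGFB were near 0. They were 0.03 ± 0.14 and 0.06 ± 0.15 for EGF and TGFB, and -0.13 ± 0.14 and 0.06 ± 0.15 for OSM and TGFB. None was called. ITGA5 reached 1392, 1375 and 1328 CPM in OSM+TGFB, a log2 fold change of 2.93 ± 0.11 over PBS. With all 3 ligands 8 of the 10 fell short of the summed log2 changes, at a median of -1.42 against 0.02 over all rows. Of all rows 45.9% were called, 20.9% higher and 25% lower. In CPM, mean ITGA5 with all 3 ligands (1373) lay above its EGF, OSM and TGFB means (303, 505 and 463) added together. Mean ITGA3 with all 3 ligands (1555 CPM) lay below its own (1112, 1037 and 428 CPM) added together. ITGB1 (0.10 ± 0.14) and ITGB8 (-0.29 ± 0.19) were not called; ITGB8 was called without EGF+OSM+TGFB library 2 (-0.52, adjusted p 0.0119).

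**Figure D3:**
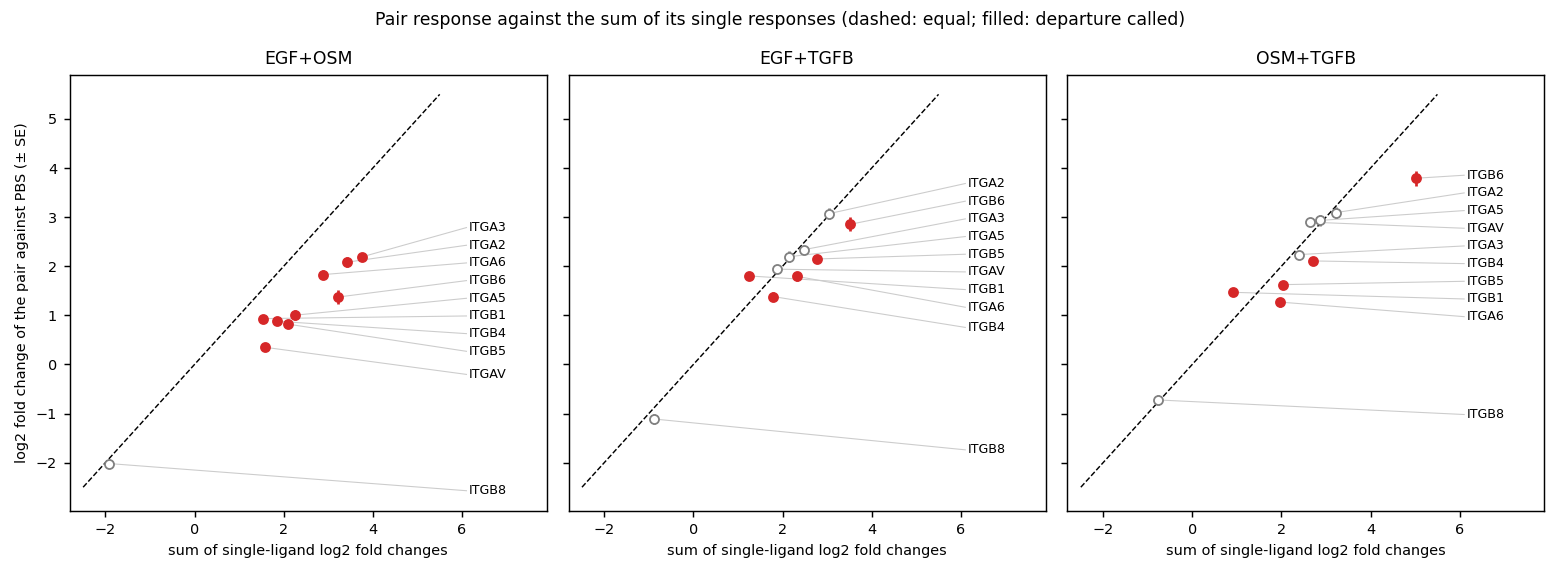
Log2 fold change of each integrin against PBS in the 3 pairs of ligands, set against the sum of its single-ligand changes. Bars are standard errors of the change under the pair, and the dashed line marks equality with the sum. The EGF and OSM pair lies below the sum for all 10 genes, and the departure is called for 9. ITGB1 lies above the sum in both pairs with TGFB.

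The combined conditions kept the split between 9 rising genes and ITGB8. Against PBS all 10 were called in EGF+OSM, EGF+TGFB, OSM+TGFB and EGF+OSM+TGFB, each time 9 higher and 1 lower. Medians were 0.97, 2.04, 2.17 and 2.16. Of all rows 75% were called in EGF+OSM against PBS (36.6% higher, 38.4% lower) and 71.3% in EGF+TGFB (35% higher, 36.3% lower). In OSM+TGFB 63.5% were called (33.1% higher, 30.5% lower), and in EGF+OSM+TGFB 72.1% (36.6% higher, 35.5% lower). ITGB6 was highest in OSM+TGFB, at 1774, 1729 and 1539 CPM, above the 1175, 1188 and 994 CPM of the triple combination with no overlap. ITGB8 was lowest in the triple combination, at 26.5, 36.1 and 27.8 CPM, overlapping EGF+OSM. Its fold change against PBS there was -2.08 ± 0.10 (edgeR adjusted p 7.4e-15).

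Since OSM+TGFB exceeded the triple combination for several members, the effect of EGF on top of OSM was tested, a comparison chosen after the values were seen. EGF added to OSM gave 9 calls, 4 higher and 5 lower, where 59.4% of all rows were called, 28.7% higher and 30.7% lower. ITGB6 fell by 0.99 ± 0.14 (edgeR adjusted p 1.9e-06), ITGAV by 0.83 ± 0.07 (1.5e-09), ITGB4 by 0.50 ± 0.08 (1.3e-05) and ITGA5 by 0.50 ± 0.10 (2.5e-04). ITGB4, for example, went from 2779, 2633 and 2348 CPM in OSM to 2086, 1774 and 1635 CPM in EGF+OSM. ITGB8 fell by 1.13 ± 0.10 (1.7e-09). ITGA6, ITGA3, ITGB1 and ITGA2 rose by 0.57, 0.36, 0.33 and 0.29; the last was lost with OSM and EGF+OSM fitted alone (adjusted p 0.0837) and without OSM library 2 or EGF+OSM library 1.

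The same addition on OSM+TGFB was also chosen after the values were seen. The falls in it are those that prompted the comparison, so their p-values are descriptive only. It gave 8 calls, 4 in each direction, where 50.1% of all rows were called, 25.2% higher and 24.9% lower. ITGB6 fell by 0.59 ± 0.13, ITGAV by 0.53 ± 0.07 and ITGB4 by 0.37 ± 0.08 (edgeR adjusted p 9.3e-04, 1.7e-06 and 6.3e-04). ITGB4 went from 4458, 4297 and 4121 CPM to 3414, 3567 and 3009 CPM, without overlap. ITGA5 changed by 0.01 ± 0.10 and was not called. ITGB8 fell by 1.35 ± 0.10, and ITGA6 rose by 0.60 ± 0.09 (5.8e-06). The rise of ITGA3, 0.18 ± 0.06 (1.2e-02), was not called without OSM+TGFB library 1 or 2 or EGF+OSM+TGFB library 2.

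The balance among ITGB5, ITGB6 and ITGB8 differed between groups. ITGB3, a further partner of ITGAV, is not a member of the set and is left out of these shares. The member ITGB1 is left out as well, so they are not shares of all beta subunits. In the sum of ITGB5, ITGB6 and ITGB8 per kilobase, ITGB6 made up 47.6% ± 1.67 in PBS (SD, n = 3) and 50.7% ± 3.87 in EGF. It held 81.2% ± 2.09 in OSM, 75.6% ± 0.446 in TGFB and 87.1% ± 1.12 in OSM+TGFB, with no library of these groups overlapping PBS or EGF. ITGB8 went the other way, from 25.8% ± 0.673 in PBS to 7.50% ± 0.714 in EGF, 4.61% ± 0.496 in OSM and 1.14% ± 0.166 in the triple combination. ITGB5 held 26.6% ± 1.30 in PBS, 41.8% ± 3.21 in EGF and 10.9% ± 1.19 in OSM+TGFB. The ratio of ITGB6 to ITGB8 per kilobase was 1.85 ± 0.106 in PBS, 6.83 ± 1.18 in EGF, 10.7 ± 1.25 in TGFB, 17.8 ± 2.06 in OSM and 72.8 ± 11.5 with all 3 ligands. In TGFB alone ITGB6 rose and ITGB8 was not called.

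**Figure D4:**
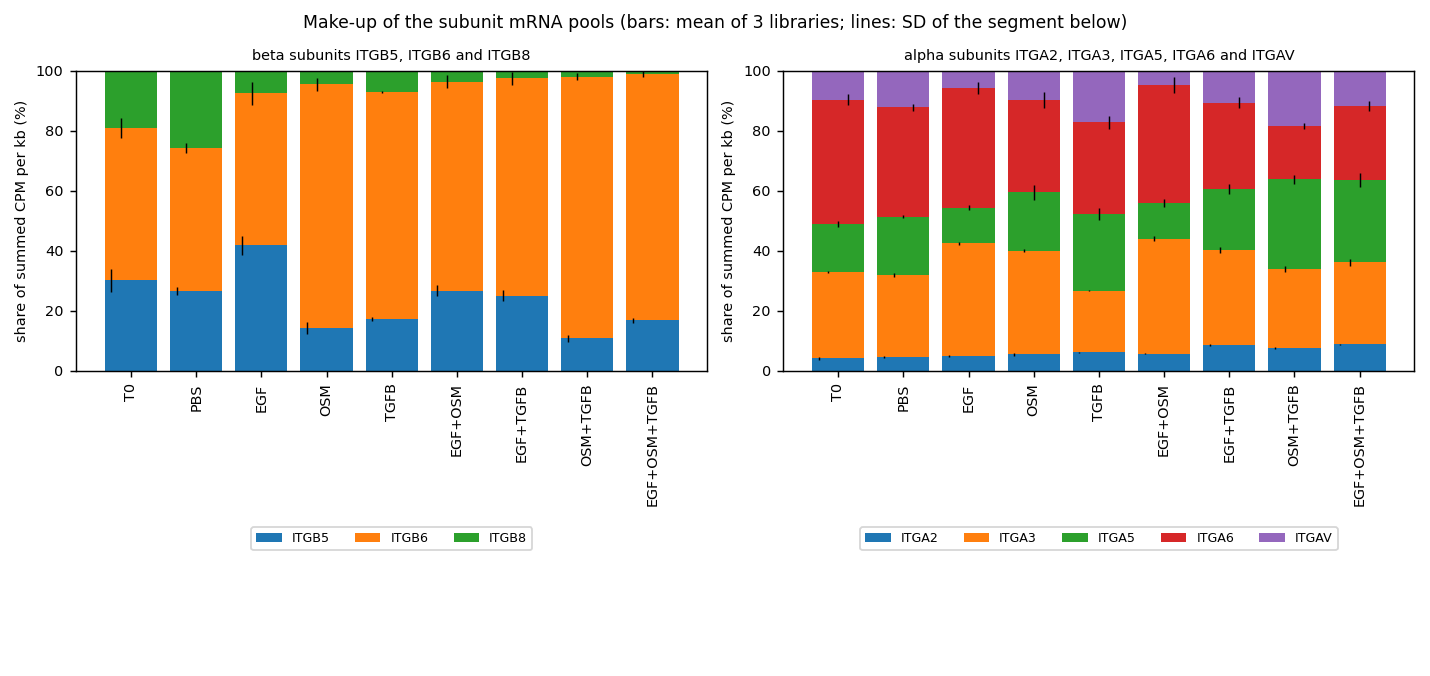
Share of each subunit (percent of the summed CPM per kb) among ITGB5, ITGB6 and ITGB8 and among the 5 alpha subunits, by group, as means of 3 libraries. ITGB6 grows from 47.6% in PBS to 87.1% in OSM+TGFB, and ITGAV from 5.77% of the alpha subunits in EGF to 18.4% in OSM+TGFB.

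Among the 5 alpha subunits, per kilobase, the laminin receptors took more of the mix in EGF, and ITGAV and ITGA5 more of it in OSM+TGFB, than in PBS, without overlap. ITGA3 and ITGA6 held 27.5% ± 0.683 and 36.4% ± 1.18 in PBS and 37.6% ± 0.484 and 40.0% ± 1.93 in EGF. In OSM+TGFB ITGA6 held 17.8% ± 1.04, while ITGA5 held 30% ± 1.46 and ITGAV 18.4% ± 0.858. In PBS the latter had held 19.4% ± 0.562 and 12.2% ± 0.232. The summed level of the 10 subunits was 679.8 ± 26.4 CPM per kb in PBS, 1387 ± 22.9 in EGF, 1583 ± 70.2 in OSM and 1362 ± 43.2 in TGFB. It reached 2878 ± 53 in OSM+TGFB and 2950 ± 189 in the triple combination, whose libraries overlap.

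Over the 9 group means, some members moved more alike than others. On log2 CPM, Pearson's r was 0.98 for ITGB4 and ITGB6, 0.96 for ITGAV and ITGB6, 0.97 for ITGA5 and ITGAV, and 0.95 for ITGA3 and ITGA6. Between ITGA3 or ITGA6 and the 4 genes ITGA5, ITGAV, ITGB4 and ITGB6 it ran from 0.42 for ITGA6 and ITGAV to 0.74 for ITGA3 and ITGA5. ITGA2 was close to genes of both kinds, at 0.90 with ITGA3 and 0.94 with ITGA5. ITGB8 was negatively related to the other 9, from -0.87 with ITGA6 to -0.23 with ITGAV. These describe 9 points that share the same libraries and scaling.

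Among the tested protein-coding rows with a symbol, other than the members, the genes whose group means most resembled those of 3 members were found by the same r over 9 groups. For ITGB6 they were PRICKLE2, a planar cell polarity gene (r = 0.985), and FNDC3B (0.982). PRICKLE2 stood at 12.8 ± 1.1 CPM in PBS and 102 ± 9.81 CPM in OSM+TGFB. For ITGA2 they were PGM3, an enzyme of UDP-N-acetylglucosamine synthesis (0.996), and CALR, the chaperone calreticulin (0.994). For ITGA5 they were MLXIP (0.997) and EXT2, a heparan sulfate polymerase subunit (0.993). MLXIP stood at 90.5 ± 0.547 CPM in PBS and 290.4 ± 12.6 CPM in OSM+TGFB. These r values are the highest of a search over many rows with only 9 group means each.

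The genes that work with these receptors were counted from lists, beside medians over all rows of -0.07 with EGF, 0.00 with OSM, -0.01 with TGFB and 0.00 with all 3 ligands. The shares of all rows called against PBS, for reading these counts, were 33.8% higher and 37% lower with EGF, 32.4% and 28.5% with OSM, 18.9% and 14.7% with TGFB, and 36.6% and 35.5% with all 3. Of the hemidesmosome list, 7 genes for other proteins of this junction and its basement membrane, all were tested. EGF raised 5 and lowered 1 (median 0.44), OSM raised 6 (0.78), TGFB raised 5 and lowered 1 (0.64), and the triple combination raised 6 and lowered 1 (1.37). DST, a plakin that links the hemidesmosome to keratin filaments, fell in the triple combination from 699 ± 96.7 to 429 ± 16.5 CPM.

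Of 20 focal adhesion genes, 19 were tested. EGF raised 14 and lowered 3 (median 0.64), OSM raised 16 and lowered 3 (0.57), TGFB raised 14 and lowered none (0.59), and the triple combination raised 18 and lowered 1 (1.46). ACTN1, an actin crosslinker of focal adhesions, rose from 162 ± 5.63 CPM in PBS to 828 ± 47.0 CPM in EGF and 2111 ± 68.5 CPM in the triple combination. TNS1 of the same list fell with EGF from 26.6 ± 1.85 to 7.84 ± 0.219 CPM. Of 13 genes that control integrin activation, 11 were tested, and EGF raised 7 and lowered 1 (median 0.64), OSM raised 7 and lowered 2 (0.28), and TGFB raised 6 and lowered 1 (0.32). FLNA, a filamin that binds beta subunit tails, rose with EGF from 371 ± 30.7 to 2298 ± 85.9 CPM, while TLN2 fell from 9.85 ± 0.943 to 6.49 ± 0.462 CPM.

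Of 16 ligand genes, 15 were tested. EGF raised 8 and lowered 5 (median 0.29), OSM raised 10 and lowered 2 (1.36), and TGFB raised 11 and lowered 1 (2.16). The last median was 1.54 with a floor of 3 counts, applied to genes at or under it in every library of either group. FN1, fibronectin, rose with TGFB from 132 ± 18.4 to 1964 ± 77.6 CPM. NPNT fell with EGF from a low level, 2.05 ± 0.513 to 0.279 ± 0.0481 CPM. TNC, tenascin-C, a ligand of several integrins, rose with OSM from 12.5 ± 2.07 to 713 ± 29.9 CPM and to 3405 ± 47.2 CPM in the triple combination.

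For the remaining lists the counts in the triple combination lay near the shares over all rows, 36.6% higher and 35.5% lower. Of 9 genes for latent TGFB and its binding proteins, 7 were tested, and the triple combination raised 3 and lowered 3 (median 0.03). LTBP2, one of these, rose there from 28.8 ± 3.21 to 524 ± 31.2 CPM, and LTBP3 fell there from 50.4 ± 2.83 to 19.2 ± 3.25 CPM. Of 9 surface partners of integrins the triple combination raised 4 and lowered 5 (median -0.21). PLAUR, the urokinase receptor, rose from 37.5 ± 3.40 to 164 ± 2.47 CPM, and CD82, a tetraspanin, fell from 230.2 ± 9.24 to 71.4 ± 4.10 CPM.

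Of 16 other integrin genes 13 were tested, and the triple combination raised 5 and lowered 6 (median -0.07), beside 36.6% and 35.5% of all rows. ITGB3 stood at 0.351 ± 0.107 CPM in PBS, 2.04 ± 0.924 CPM in EGF, 8.72 ± 1.28 CPM in OSM, 8.54 ± 0.976 CPM in TGFB and 82.3 ± 12.3 CPM in the triple combination. Its log2 fold change there was 7.88 ± 0.36, from a level near 0. ITGAX, mainly a leukocyte integrin, fell with OSM from 5.64 ± 0.931 to 0.308 ± 0.0786 CPM.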

How the data were processed

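RNA was sequenced in 27 MCF10A libraries. The deposited values are estimated counts per gene, stored as whole numbers. Per the submitters' processing notes, the tools were Trim Galore 0.4.3, cutadapt 1.10, FastQC 0.11.5, kallisto 0.46.2 and R 3.5.0, with builds GRCh38.p5 and hg38. How transcripts were summed and rounded is not given in the sources used here. Pseudo-aligned reads shared by similar genes are divided by estimate. Rows with no symbol held 0.324% of counts.

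Libraries were grouped by their labels. Rows were filtered by filterByExpr and scaled by TMM in edgeR 4.0.16 (R 4.3.3), and 1 quasi-likelihood model was fitted over all 27 libraries, with Benjamini-Hochberg adjustment over 16611 rows and a threshold of 0.05. The common coefficient of variation between libraries of a group, from edgeR's dispersion, was 10.1%. CPM are TMM-scaled. Standard errors are the log2 fold change over the root of F. Lengths are those of MANE Select transcripts (GENCODE v44). The fit was tested on simulated data. Resembling genes are the 2 with the highest r. Named pathway genes were drawn from the called members of each list with the largest rise and the largest fall in a comparison, and not all of these are named. A gene that this rule names is not reported here. The genes and lists were chosen with earlier results of these data known. Alternatives were upper-quartile scaling, no filter, a replicate block, the compared groups alone, DESeq2 1.42.0 and leaving out each library.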

Additional observations from a re-analysis of the deposited data

How the results depend on the processing

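Of 180 changes (10 genes in 18 comparisons), 152 were called, 169 kept their sign under every alternative tried, and 154 also kept their side of the threshold. With upper-quartile scaling the uncalled changes of ITGA6 with TGFB added to OSM and of ITGA5 with EGF added to OSM+TGFB turned from 0.01 to -0.0079 and -0.014. That scaling moved the median of all rows by -0.10 in EGF+OSM+TGFB against PBS. Signs turned when 1 library was left out for 11 uncalled changes. For EGF and TGFB the departure ran from -0.092 to 0.078 for ITGA2, from -0.053 to 0.12 for ITGA5 and from -0.049 to 0.12 for ITGAV. For OSM and TGFB it ran from -6.7e-05 to 0.11 for ITGA5 and from -0.0705 to 0.095 for ITGB8. For the triple departure of ITGB1 it ran from -0.054 to 0.20. TGFB added to OSM ran from -0.11 to 0.13 and TGFB added to EGF+OSM from -0.055 to 0.074 for ITGA6. OSM against EGF ran from -0.026 to 0.25 for ITGA2 and from -0.0095 to 0.15 for ITGB8, and EGF added to OSM+TGFB from -0.053 to 0.11 for ITGA5. For PBS against T0, leaving out 1 library gave 5 to 7 calls in place of 8. Deviations of libraries sharing a replicate number correlated at 0.0759 on average, from -0.0817 to 0.262. Those of libraries with other numbers correlated at -0.0378 on average. This second average follows from the first, because deviations from a group mean cancel within the group, and it adds no evidence. Among libraries of other groups, 23 of 27 libraries correlated best with one of their own number. A link between libraries of the same number was therefore present, and the main fit did not model it. Its average correlation was low, but it was plain in several integrins. Library 3 was the lowest of its group in 8 of 9 groups for ITGB4 and ITGB6, and library 2 in 8 of 9 for ITGA6. With a replicate block the calls among the 10 genes were 9 for PBS against T0, 9 for TGFB added to EGF and 6 for the OSM and TGFB departure, and equal elsewhere; the added genes were ITGA5 (adjusted p 0.0023), ITGA6 (0.0094) and ITGAV (0.0099). Levels without TMM scaling moved by more than the replicate SD in 53 of 90 cases. The TMM factors differed by group, at 1.08 to 1.12 in PBS and 0.867 to 0.891 in EGF+OSM+TGFB. Scaling thus lowered CPM in PBS and raised it in EGF+OSM+TGFB. Counting depth did not limit these genes, whose lowest library held 26.5 CPM; 3 libraries a group limit small changes.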
